A study of Mus musculus with 9 samples.

Results

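The genes described here are 10 members of the Notch pathway in the mouse heart: the receptors Notch1, Notch2, Notch3 and Notch4, the ligands Jag1, Jag2 and Dll4, and the target repressors Hey1, Hey2 and Hes1. They were chosen by gene symbol, and they make up 10 of the 24964 gene rows in the deposited count table. The hearts came from 9 male C57BL/6JR mice, given as 8 weeks old, and were studied by bulk RNA-seq. In the MI 28 d group, hearts were taken 28 d after a myocardial infarction (MI) made by tying off the left anterior descending coronary artery under isoflurane. In the MI 7 d group, hearts were taken 7 d after the same ligation. In the sham group, mice had the same anaesthesia and surgery but the artery was not tied. Each group held 3 mice, all groups were of the same strain with no genetic change named, and the labels give neither the harvest time of the sham hearts nor the piece of heart that was used.

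Notch receptors sit in the cell membrane and are switched on by Jagged or Delta-like ligands on a neighbouring cell. Binding leads to cuts by an ADAM protease and by gamma-secretase, which free the intracellular part of the receptor to enter the nucleus, join the DNA-binding protein RBPJ and switch on targets such as the HES and HEY repressors. In the heart and its vessels the pathway is known for patterning arteries, restraining sprouting endothelial cells and maintaining smooth muscle and pericytes.

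Promoter sequence is shown for 3 genes: Hey2, the target repressor whose window holds letters of the RBPJ site, Notch2, the receptor that was higher at both times after MI, and Dll4, a ligand that was lower at both times. Each run starts 250 bases before the RefSeq transcription start and ends 10 bases after it, read 5′ to 3′ on the strand of the gene, with coordinates on GRCm38.p6. Capitals mark GTGGGAA, the core letters of the RBPJ site, or its reverse complement.
Hey2, minus strand, chr10:30842774-30843033: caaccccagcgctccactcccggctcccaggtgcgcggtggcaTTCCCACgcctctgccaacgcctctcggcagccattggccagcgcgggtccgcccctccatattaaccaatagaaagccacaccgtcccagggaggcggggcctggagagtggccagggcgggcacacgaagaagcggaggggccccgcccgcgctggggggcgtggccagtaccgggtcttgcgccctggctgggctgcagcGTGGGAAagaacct
Notch2, plus strand, chr3:98013288-98013547: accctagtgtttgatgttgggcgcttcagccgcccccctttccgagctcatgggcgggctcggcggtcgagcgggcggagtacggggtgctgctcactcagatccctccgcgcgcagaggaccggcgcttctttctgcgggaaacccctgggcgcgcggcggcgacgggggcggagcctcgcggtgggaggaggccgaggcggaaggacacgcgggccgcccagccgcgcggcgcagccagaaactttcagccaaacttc
Dll4, plus strand, chr2:119325534-119325793: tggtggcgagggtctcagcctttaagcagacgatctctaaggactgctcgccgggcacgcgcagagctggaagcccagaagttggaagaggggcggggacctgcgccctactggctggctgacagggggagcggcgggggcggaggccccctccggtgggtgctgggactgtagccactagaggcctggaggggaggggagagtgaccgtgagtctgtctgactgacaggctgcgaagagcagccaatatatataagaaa

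Of the 10 members, 8 matched a window of 300 bases in the RefSeq promoter table, and Hey1 and Hes1 did not. Both strands were searched in the 300 bases from 250 before to 50 after the start. GTGGGAA was found in 1 of the 8 member windows, that of Hey2, and in 6.39% of 32817 mouse windows of the same length. The Hey2 window held 2 matches, with their leftmost bases at -207 on the opposite strand and at -4 on the strand of the gene, counting the start as 0. Such windows with 2 or more matches were 0.256% of all. The shorter TGGGAA, which lies within GTGGGAA, was found in no other member window and in 25.6% of all windows. Of the letters that HES and HEY proteins are known to bind, CACGTG was found in 0 of the 8 member windows and in 7.15% of all, and CACNAG in 4 of 8 (Notch1, Notch2, Notch3 and Dll4) and in 42.5% of all. The RefSeq start of Notch1 lies 12841 bases inside the gene as GENCODE draws it, that of Jag2 281 bases and that of Jag1 124 bases inside, so these windows are not at the outermost annotated start. The other 5 starts lie within 38 bases of the GENCODE end. These are letter matches, and no binding was measured.

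The table holds whole-number read counts per gene, which summed to between 15300344 and 15770389 in MI 28 d libraries, 18355720 and 19238101 in MI 7 d libraries, and 12351525 and 13629120 in sham libraries. Levels are given as CPM, counts relative to a library total scaled by TMM. All 10 members passed the filter on low counts and were among 14347 genes tested with the quasi-likelihood test of edgeR. Adjusted p-values are by the method of Benjamini and Hochberg over these genes, at a threshold of 0.05. "Rose", "fell", "higher" and "lower" in a call refer to that test. Fold changes are those fitted by it, with their standard error (SE). Its p-values rest on a spread between libraries that was estimated for each gene over all 9 libraries together. Those for MI 28 d against MI 7 d thus also draw on the spread of the sham libraries. Replicates differed far more in the MI groups than in the sham group, with a biological coefficient of variation of 24.2% at 28 d, 17.0% at 7 d and 2.73% in sham hearts. Chi-square per degree of freedom was 1.64 to 1.76 between sham libraries, more than sampling noise but close to it, and 17.9 to 67.4 within the MI groups. Whether the sham libraries hold the spread of separate mice was not tested, and p-values against sham take them as 3 mice. Replicate 3 of MI 28 d stood apart, being the lowest library of its group for 7 of the 10 members and the highest for Notch2 and Jag1. Libraries with over 100 CPM of the fat-cell gene Adipoq were replicates 1 and 3 of MI 28 d and replicate 3 of MI 7 d. Without them replicate 2 alone stands for MI 28 d, so values at 28 d then hold no replicate spread of that group. Members whose call or sign changes without these libraries are given with each gene, at 28 d by effect size only.

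Infarcted hearts carried a different mix of Notch receptors from sham hearts. Notch2 rose at both times and Notch1 fell at both times, and per exon length Notch2 lay below Notch1 in sham hearts and above it at 7 d. Notch4 fell at 28 d, and Notch3 fell at 28 d against 7 d.

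Notch1 is a receptor of endothelial and many other cells, at chr2:26457903-26516663 on the minus strand of GRCm38. Its CPM was 58.6, 58.9 and 32.9 in MI 28 d hearts, 40.6, 46.5 and 44.6 in MI 7 d hearts, and 94.9, 93.7 and 88.0 in sham hearts. Every MI library lay below every sham library, while the MI groups overlapped each other through replicate 3 of MI 28 d. Notch1 fell 1.84-fold at 28 d (log2 -0.88, SE 0.19, edgeR adjusted p = 0.00342) and 2.10-fold at 7 d (log2 -1.07, SE 0.19, edgeR adjusted p = 0.000531). The MI 28 d and MI 7 d groups differed by 0.19 on the log2 scale (SE 0.19, edgeR adjusted p = 0.411). Without replicate 3 of MI 28 d, that last difference was 0.42 and passed the test (edgeR adjusted p = 0.00108). It was 0.43 without the Adipoq-rich libraries, where replicate 2 alone stood for MI 28 d. With the sham libraries summed to 1, an alternative chosen after seeing the data, the fall at 28 d had an edgeR adjusted p of 0.0570. In bulk tissue, fewer cells of a type and less RNA per cell cannot be told apart, here and for each gene below.

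Notch2 is the receptor known in smooth muscle and in several immune and connective tissue cells, at chr3:98013527-98150361 on the plus strand. Its CPM was 59.4, 69.4 and 90.5 in MI 28 d hearts, 105.4, 136.0 and 129.5 in MI 7 d hearts, and 40.5, 42.9 and 41.3 in sham hearts. The 3 groups did not overlap, with MI 7 d highest and sham lowest. Notch2 rose 1.76-fold at 28 d (log2 0.82, SE 0.15, edgeR adjusted p = 0.00165) and 2.98-fold at 7 d (log2 1.57, SE 0.15, edgeR adjusted p = 9.04e-06). It was 1.69-fold lower at 28 d than at 7 d (log2 -0.76, SE 0.15, edgeR adjusted p = 0.00192). With the sham libraries summed to 1, the rise at 28 d had an edgeR adjusted p of 0.0631, and that at 7 d of 0.00241.

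Notch3, the receptor that marks vascular smooth muscle and pericytes, lies at chr17:32120820-32166852 on the minus strand. Its CPM was 85.2, 74.6 and 43.0 in MI 28 d hearts, 99.4, 133.5 and 137.5 in MI 7 d hearts, and 94.0, 82.9 and 80.9 in sham hearts. The MI 7 d libraries lay above all others, and the MI 28 d and sham libraries overlapped. Notch3 was 1.83-fold lower at 28 d than at 7 d (log2 -0.87, SE 0.22, edgeR adjusted p = 0.00840). Against sham it did not pass, with a log2 fold change of -0.35 at 28 d (SE 0.22, edgeR adjusted p = 0.214) and 0.52 at 7 d (SE 0.22, edgeR adjusted p = 0.0553). The value at 7 d passed in 7 of 17 alternatives, among them DESeq2 (log2 0.49, adjusted p = 0.0424) a fit of only these groups in edgeR (log2 0.54, adjusted p = 0.00425), library size alone (log2 0.86, edgeR adjusted p = 0.00369) and the fit without the Adipoq-rich libraries (log2 0.43, edgeR adjusted p = 0.00819).

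Notch4, a receptor found mainly on endothelial cells, lies at chr17:34564268-34588503 on the plus strand. Its CPM was 58.9, 55.2 and 31.8 in MI 28 d hearts, 72.1, 69.8 and 72.4 in MI 7 d hearts, and 76.5, 77.9 and 76.8 in sham hearts. All MI 28 d libraries lay below all others, and the MI 7 d libraries lay closely together just under the sham libraries. Notch4 fell 1.59-fold at 28 d against sham (log2 -0.67, SE 0.18, edgeR adjusted p = 0.0127) and was 1.47-fold lower at 28 d than at 7 d (log2 -0.56, SE 0.18, edgeR adjusted p = 0.0268). At 7 d against sham its log2 fold change was -0.11 (SE 0.18, edgeR adjusted p = 0.605), and 0.22 with library size alone. The fall against sham had an edgeR adjusted p of 0.113 with the sham libraries summed to 1. The call against 7 d was lost without replicate 1, 2 or 3 of MI 7 d (edgeR adjusted p = 0.0646, 0.0543 and 0.0591) and in a fit of only these groups (edgeR adjusted p = 0.0686), and the log2 value was -0.32 without replicate 3 of MI 28 d.

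**Figure D1:**
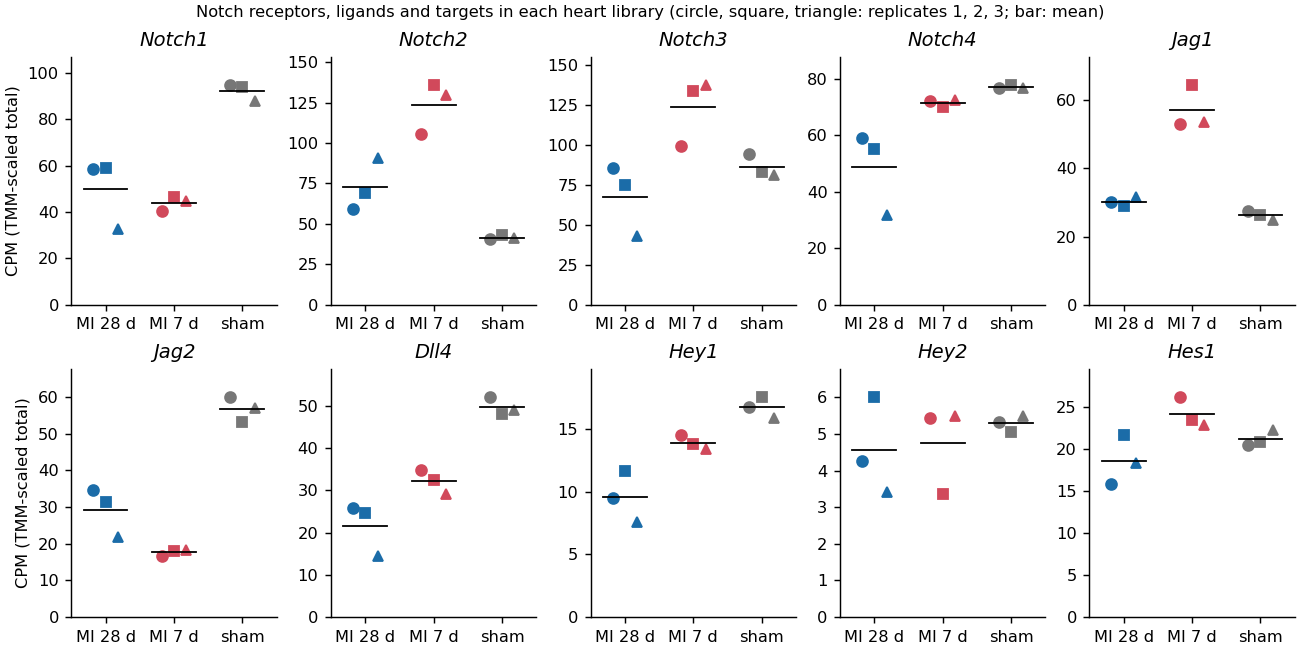
CPM of each gene in each heart library (y axis, linear, from 0) by group (x axis), with a bar at the mean of 3 libraries and a marker shape for each replicate. Notch1, Jag2 and Dll4 lay lower in all MI libraries than in all sham libraries, Notch2 lay higher, and the triangle of MI 28 d was the lowest point of its group for 7 genes.

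Among the ligands, Jag2 and Dll4 fell at both times after MI, and Jag1 rose at 7 d. Jag1 stood close to its sham level at 28 d. Jag2 was at its lowest at 7 d, where Jag1 was at its highest.

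Jag1 is a Jagged ligand of endothelial, smooth muscle and other cells, at chr2:137081456-137116644 on the minus strand. Its CPM was 30.1, 28.8 and 31.6 in MI 28 d hearts, 52.8, 64.5 and 53.5 in MI 7 d hearts, and 27.5, 26.4 and 24.9 in sham hearts. The 3 groups did not overlap, although MI 28 d and sham were separated by little. Jag1 rose 2.17-fold at 7 d against sham (log2 1.12, SE 0.10, edgeR adjusted p = 3.75e-06) and was 1.89-fold lower at 28 d than at 7 d (log2 -0.92, SE 0.09, edgeR adjusted p = 4.66e-05). At 28 d against sham the log2 fold change was 0.20 (SE 0.10, edgeR adjusted p = 0.101), which did not pass. With library size alone it was 0.45 and passed (edgeR adjusted p = 0.00540).

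Jag2, the other Jagged ligand, lies at chr12:112907819-112929776 on the minus strand. Its CPM was 34.7, 31.3 and 21.9 in MI 28 d hearts, 16.7, 17.9 and 18.3 in MI 7 d hearts, and 60.1, 53.3 and 57.1 in sham hearts. The groups did not overlap, with sham highest and MI 7 d lowest, and replicate 3 of MI 28 d was the library nearest to MI 7 d. Jag2 fell 1.94-fold at 28 d (log2 -0.96, SE 0.15, edgeR adjusted p = 0.000595) and 3.22-fold at 7 d (log2 -1.69, SE 0.15, edgeR adjusted p = 4.99e-06), the widest change of the 10 genes at 7 d. It was 1.66-fold higher at 28 d than at 7 d (log2 0.73, SE 0.15, edgeR adjusted p = 0.00244). Jag2 was the 1 member called higher in that comparison with all libraries.

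Dll4 is a Delta-like ligand of arterial and sprouting endothelial cells, at chr2:119325784-119335962 on the plus strand. Its CPM was 25.8, 24.6 and 14.5 in MI 28 d hearts, 34.8, 32.4 and 29.1 in MI 7 d hearts, and 52.2, 48.0 and 49.1 in sham hearts. The groups did not overlap and stood in the order sham, MI 7 d and MI 28 d from high to low. Dll4 fell 2.30-fold at 28 d (log2 -1.20, SE 0.18, edgeR adjusted p = 0.000581), the widest change of the 10 at that time, and 1.55-fold at 7 d (log2 -0.63, SE 0.18, edgeR adjusted p = 0.00968). It was 1.49-fold lower at 28 d than at 7 d (log2 -0.57, SE 0.18, edgeR adjusted p = 0.0237). The fall at 7 d was lost with library size alone (log2 -0.30, edgeR adjusted p = 0.108) and with the sham libraries summed to 1 (edgeR adjusted p = 0.0796). The difference between the MI groups was lost without replicate 1 or 2 of MI 7 d (edgeR adjusted p = 0.0755 and 0.0572) and in a fit of only these groups (edgeR adjusted p = 0.0594), and was -0.35 without replicate 3 of MI 28 d.

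Of the target repressors, Hey1 fell at 28 d, and neither Hey2 nor Hes1 passed against sham at either time with TMM scaling. Hey1 and Hes1 were lower at 28 d than at 7 d.

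Hey1, a repressor downstream of Notch in vessels, lies at chr3:8663359-8667256 on the minus strand. Its CPM was 9.49, 11.6 and 7.59 in MI 28 d hearts, 14.5, 13.8 and 13.4 in MI 7 d hearts, and 16.7, 17.6 and 15.9 in sham hearts. The groups did not overlap, and MI 28 d was the lowest. Hey1 fell 1.75-fold at 28 d against sham (log2 -0.81, SE 0.15, edgeR adjusted p = 0.00144) and was 1.45-fold lower at 28 d than at 7 d (log2 -0.54, SE 0.14, edgeR adjusted p = 0.0107). At 7 d against sham the log2 fold change was -0.27 (SE 0.14, edgeR adjusted p = 0.113), and 0.06 with library size alone. That value passed in voom with group weights (log2 -0.27, limma adjusted p = 0.0298) and in a fit of only these groups (log2 -0.26, edgeR adjusted p = 0.0216). Without the Adipoq-rich libraries the difference between the MI groups was -0.29, with replicate 2 alone at MI 28 d.

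Hey2, a repressor known in arteries and in the compact ventricular muscle, lies at chr10:30832359-30842801 on the minus strand and had the fewest counts, 181 to 295 summed over a group. Its CPM was 4.25, 6.02 and 3.42 in MI 28 d hearts, 5.44, 3.37 and 5.49 in MI 7 d hearts, and 5.32, 5.06 and 5.49 in sham hearts. The groups overlapped in all 3 comparisons. Its log2 fold changes were -0.22 at 28 d (SE 0.25, edgeR adjusted p = 0.495) and -0.15 at 7 d (SE 0.25, edgeR adjusted p = 0.604), and both were above 0 with library size alone. Between MI 28 d and MI 7 d its log2 fold change was -0.06 (SE 0.25, edgeR adjusted p = 0.844). Without the Adipoq-rich libraries, with replicate 2 alone at MI 28 d, it was 0.17 at 28 d against sham and 0.44 at 28 d against 7 d. The Hey2 window shown above is the one with 2 copies of the RBPJ letters.

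Hes1, a repressor used in many tissues, lies at chr16:30064384-30067796 on the plus strand. Its CPM was 15.8, 21.6 and 18.3 in MI 28 d hearts, 26.2, 23.4 and 22.8 in MI 7 d hearts, and 20.4, 20.8 and 22.2 in sham hearts. The MI 7 d libraries lay above all others, and MI 28 d overlapped sham. Hes1 was 1.30-fold lower at 28 d than at 7 d (log2 -0.38, SE 0.12, edgeR adjusted p = 0.0227). Against sham the log2 fold change was -0.19 at 28 d (SE 0.12, edgeR adjusted p = 0.215) and 0.19 at 7 d (SE 0.12, edgeR adjusted p = 0.178). With library size alone the value at 7 d was 0.52 and passed (edgeR adjusted p = 0.00419), and that at 28 d was 0.06 (edgeR adjusted p = 0.686). Without the Adipoq-rich libraries, with replicate 2 alone at MI 28 d, the value at 28 d was 0.02 and the log2 difference from 7 d was -0.20. The call against 7 d was lost without replicate 1 of MI 28 d (edgeR adjusted p = 0.0576) and without replicate 1 of MI 7 d (edgeR adjusted p = 0.0751).

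**Figure D2:**
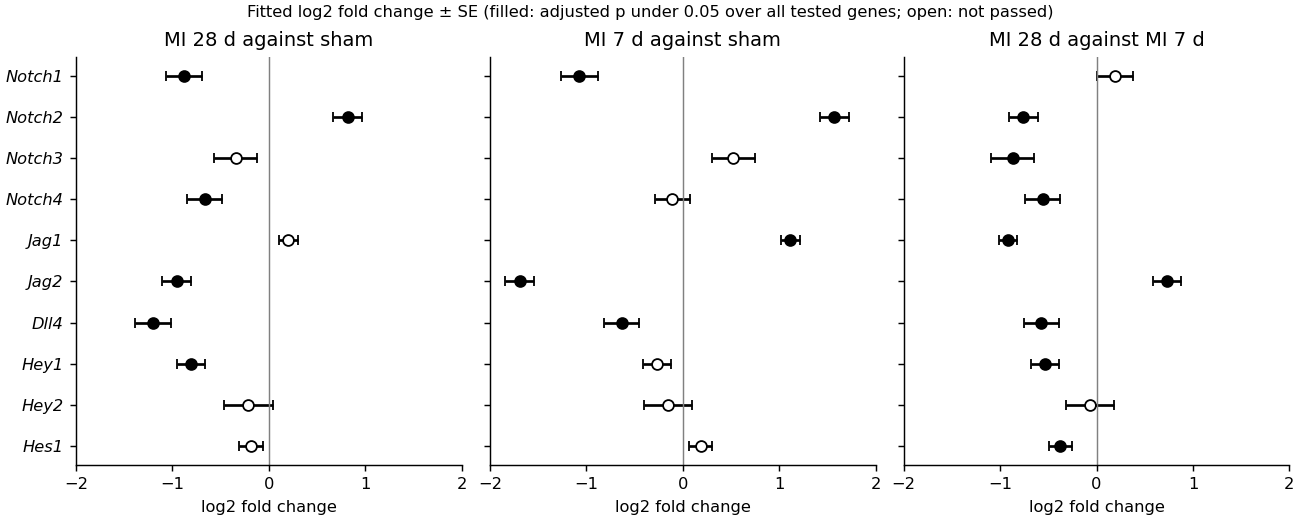
Fitted log2 fold change (x axis) of each gene (y axis) in the 3 comparisons, with bars for 1 SE and filled points for an adjusted p under 0.05 over all tested genes. Notch2 stood right of 0 and Notch1, Jag2 and Dll4 stood left of 0 in both comparisons with sham, and Jag2 was the filled point right of 0 for MI 28 d against MI 7 d.

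Counted over the 10 genes, 1 rose (Notch2) and 5 fell (Notch1, Notch4, Jag2, Dll4 and Hey1) at 28 d against sham, and 4 did not pass. Over all tested genes in that comparison 55.1% passed, 29.5% as higher and 25.6% as lower. At 7 d against sham 2 of the 10 rose (Notch2 and Jag1), 3 fell (Notch1, Jag2 and Dll4) and 5 did not pass. Over all tested genes 74.4% passed there, 39.0% as higher and 35.4% as lower, so that the share of the 10 that passed was below the background. At 28 d against 7 d 1 of the 10 was higher (Jag2), 7 were lower (Notch2, Notch3, Notch4, Jag1, Dll4, Hey1 and Hes1) and 2 did not pass. Over all tested genes 55.2% passed there, 29.1% as higher and 26.1% as lower. A fit of only these MI groups called 1 member higher and 5 lower, and 6681 genes passed in place of 7920. The median log2 fold change of the 10 was -0.51 at 28 d, -0.13 at 7 d and -0.55 at 28 d against 7 d, beside medians over all tested genes of 0.05, 0.06 and 0.03. The first 2 comparisons share the sham libraries, and the third shares the MI libraries with them. With library size alone in place of TMM, the median of all tested genes moved to 0.30 at 28 d and 0.40 at 7 d against sham. Under that scaling 2 members passed as higher and 5 as lower at 28 d, with 6479 and 2278 of all genes, and 4 as higher and 2 as lower at 7 d, with 7410 and 3587 of all genes.

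Levels of different genes were compared per exon length, as RPKM, which is CPM per kilobase of exon, with exon lengths from the GENCODE annotation of GRCm38. In sham hearts Hes1 and Dll4 led with 14.4 ± 0.7 and 13.3 ± 0.6 RPKM (SD, n = 3) and overlapped. Notch4, Jag2 and Notch3 followed with 11.7 ± 0.1, 11.1 ± 0.7 and 10.7 ± 0.9 RPKM, each overlapping the next, and below them Notch1, Hey1, Jag1, Notch2 and Hey2 were each separated from the next, down to 2.07 ± 0.09 RPKM for Hey2. In MI 7 d hearts Notch2 had moved up to rank 3, with 11.8 ± 1.5 RPKM, behind Hes1 and Notch3 and overlapping Notch3 and Notch4. Jag2 stood at rank 9 there, with 3.45 ± 0.16 RPKM, above Hey2 only. In MI 28 d hearts Hes1 led with 12.6 ± 2.0 RPKM, and each of the 8 genes from Notch3 (8.43 ± 2.74 RPKM) down to Hey1 (3.95 ± 0.83 RPKM) overlapped its neighbour in the order. Genes farther apart in it could still be separate, as Hey1 (3.13 to 4.79 RPKM) was from Notch3 (5.36 to 10.6 RPKM), Notch4, Notch2 and Jag1. Hey2 was the lowest of the 10 in all groups.

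Within the receptors, Notch2 made up 26.1% ± 11.0 of the summed RPKM in MI 28 d hearts, 27.6% ± 1.1 in MI 7 d hearts and 11.0% ± 0.5 in sham hearts (SD, n = 3 each). Notch1 made up 18.5% ± 2.6, 10.9% ± 0.5 and 26.9% ± 0.4 in the same groups. The mean Notch2 share at 28 d was drawn up by replicate 3, with 38.7%. The lowest MI 28 d library, with 18.0%, still lay above the highest sham library, with 11.3%. Within the ligands, Jag1 made up 32.6% ± 7.1 in MI 28 d hearts, 45.7% ± 2.9 in MI 7 d hearts and 16.1% ± 0.7 in sham hearts. Jag2 made up 33.7% ± 2.4, 15.6% ± 1.3 and 38.3% ± 0.8, and Dll4 33.7% ± 4.8, 38.7% ± 3.1 and 45.7% ± 0.2. The summed RPKM was 28.1 ± 5.0, 42.6 ± 4.3 and 36.1 ± 1.1 for the receptors, 16.9 ± 2.7, 22.2 ± 1.4 and 29.1 ± 1.4 for the ligands, and 18.4 ± 3.0, 24.0 ± 1.7 and 23.4 ± 0.5 for the targets, at MI 28 d, MI 7 d and sham in that order.

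A ratio of genes within a library needs no scaling between libraries, and the following pairs were chosen after their values were seen. The ratio of Jag1 to Jag2 per length was 0.79, 0.84 and 1.31 in MI 28 d hearts, 2.88, 3.27 and 2.66 in MI 7 d hearts, and 0.42, 0.45 and 0.40 in sham hearts. The 3 groups did not overlap. The log2 difference from sham was 1.18 at 28 d and 2.80 at 7 d, each with p = 0.1 in a two-sided exact permutation test, the smallest that 3 against 3 libraries allow. The ratio of Notch2 to Notch1 per length was 0.92, 1.06 and 2.48 in MI 28 d hearts, 2.35, 2.64 and 2.63 in MI 7 d hearts, and 0.39, 0.41 and 0.42 in sham hearts. Its log2 difference from sham was 1.72 at 28 d and 2.64 at 7 d, again each with an exact permutation p of 0.1. The value at 28 d was 1.28 without replicate 3.

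**Figure D3:**
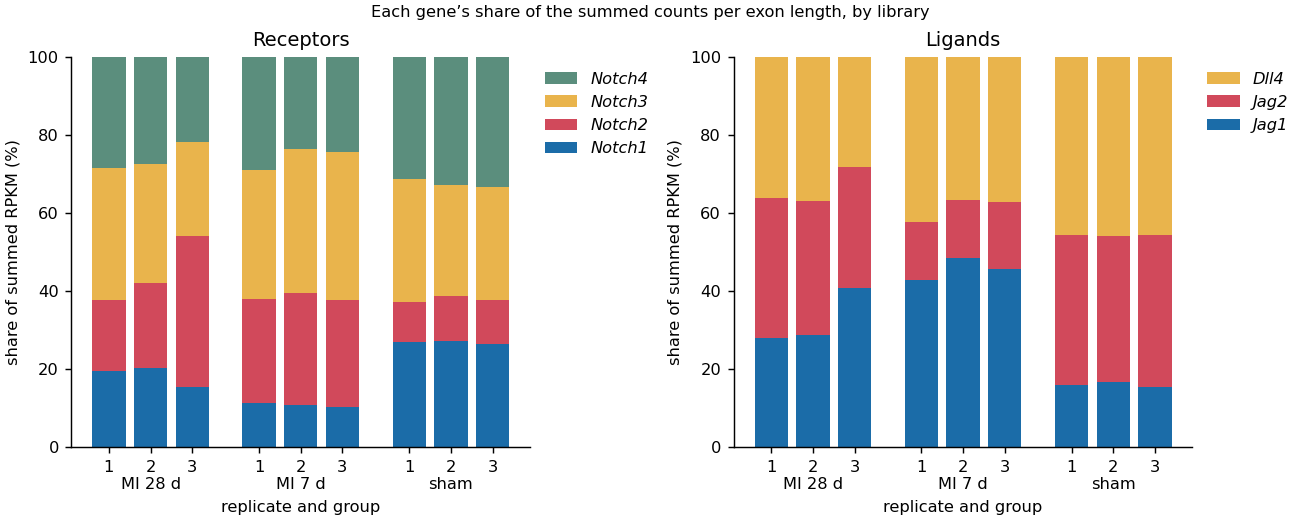
Share of each gene in the summed RPKM (y axis, percent) of the 4 receptors and of the 3 ligands, with a stacked bar for each library (x axis). The Notch2 share was 26.6 to 28.7% in MI 7 d libraries and 10.4 to 11.3% in sham libraries, and the Jag2 share was 14.8 to 17.2% in MI 7 d libraries and 37.4 to 39.0% in sham libraries.

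Markers of the cells that use these genes also moved. Of 12 endothelial markers, among them Pecam1 and Cdh5, 10 fell at 28 d and 8 fell at 7 d, and the others did not pass. Their summed level was 829 to 1567 CPM in MI 28 d hearts, 1174 to 1341 CPM in MI 7 d hearts and 2509 to 2613 CPM in sham hearts, with none at 0 and the lowest sum in replicate 3 of MI 28 d. Of 10 mural cell markers, led by Rgs5 and Pdgfrb, 5 rose and 3 fell at 28 d, and 5 rose and 4 fell at 7 d. Their sum was 1136 to 1682, 2179 to 2290 and 2090 to 2194 CPM in MI 28 d, MI 7 d and sham hearts. That sum hides opposite moves. At 7 d Rgs5, Kcnj8, Abcc9 and Higd1b fell (log2 -1.09 to -3.06), and Pdgfrb, Cspg4, Tagln, Cnn1 and Acta2 rose (log2 0.65 to 3.60). Of 8 arterial endothelial markers, led by Gja4 and Gja5, 4 rose and 1 fell at each time. Their sums were 305 to 432, 931 to 1047 and 200.4 to 206.9 CPM in the same order. Fbln5 (142, 582 and 42.7 CPM on average) and Unc5b (117, 265 and 73.8 CPM) held most of these sums. Sox17, Bmx and Sema3g did not pass against sham at either time, and Stmn2 fell, so the sum does not stand for the whole list. Which cells carried the RNA of Fbln5, or of Tagln, Cnn1 and Acta2 in the mural list, was not tested.

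All 9 ventricular cardiomyocyte markers, led by Myl2 and Myh6, fell at both times, with sums of 36394 to 60930 CPM in MI 28 d hearts, 16609 to 21409 CPM in MI 7 d hearts and 100226 to 103292 CPM in sham hearts, so the labelled tissue carried its defining markers in each group. Fibroblast markers, led by Col1a1 and Pdgfra, rose for 7 of 8 at 28 d and 8 of 8 at 7 d, with sums of 5332 to 10641, 28580 to 36753 and 2022 to 2072 CPM at MI 28 d, MI 7 d and sham. Macrophage markers, led by Cd68 and Adgre1, rose for 7 of 8 and 8 of 8, with sums of 767 to 1231, 3796 to 4738 and 447 to 503 CPM. T lymphocyte markers rose for 5 of 5 found at both times, with sums of 9.50 to 13.5, 11.6 to 18.6 and 2.09 to 2.96 CPM.

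The remaining lists were uneven between libraries. Adipocyte markers summed to 238 to 852 CPM at MI 28 d, 144 to 1245 CPM at MI 7 d and 597 to 617 CPM in sham hearts. That sum was mostly Fabp4, which other cells also express, with means of 399, 351 and 602 CPM in the same order. Adipoq averaged 84.4, 73.6 and 1.13 CPM and Plin1 32.2, 24.1 and 0.47 CPM, so these fat-cell genes were near 0 in sham hearts. Epicardial markers summed to 113 to 783, 26.4 to 146 and 7.50 to 9.21 CPM, and Schwann cell markers to 15.3 to 247, 24.3 to 29.3 and 9.97 to 14.9 CPM. Both maxima at MI 28 d were replicate 3 alone, where replicates 1 and 2 had 113 and 135 CPM of epicardial and 15.3 and 20.5 CPM of Schwann cell markers. Atrial markers summed to 128 to 207, 216 to 267 and 17.7 to 20.3 CPM, and most of the difference was Dkk3 alone, with means of 152, 207 and 5.20 CPM. The defining atrial genes Myl7 (0.52, 0.05 and 0.42 CPM) and Sln (0.09, 0.02 and 0.08 CPM) were near 0 in all groups, and Bmp10 was at 0 in both MI groups. Lymphatic markers summed to 185 to 332, 129 to 157 and 202 to 213 CPM with Ccl21a at 0 in all groups. The part of cell composition in the changes of the 10 genes was not tested beyond the ratios that follow.

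Set against the summed counts of the 12 endothelial markers, Notch1 had 39.4 ± 1.7 counts per 1000 marker counts in MI 28 d hearts, 35.3 ± 3.8 in MI 7 d hearts and 36.2 ± 1.2 in sham hearts (SD, n = 3 each). Its log2 difference from sham was 0.12 at 28 d (exact permutation p = 0.1) and -0.04 at 7 d (exact permutation p = 0.7), where the groups overlapped. The markers behind this sum did not move alike, with log2 fold changes at 7 d from -2.68 for Kdr to 0.45 for Vwf and a median of -0.69, against -1.07 for Notch1. Set against Pecam1 and Cdh5 only, the log2 difference of Notch1 was 0.26 at 28 d and -0.25 at 7 d. Jag2 had 23.6 ± 3.3, 14.2 ± 1.0 and 22.3 ± 0.9 counts per 1000. It overlapped sham at 28 d (log2 difference 0.07, exact permutation p = 0.6) and lay below sham in 3 of 3 libraries at 7 d (log2 difference -0.66, exact permutation p = 0.1). Dll4 had 17.1 ± 1.3, 25.9 ± 3.6 and 19.6 ± 0.4 counts per 1000, so it lay below sham at 28 d (log2 difference -0.20, exact permutation p = 0.1) and above it at 7 d (log2 difference 0.39, exact permutation p = 0.1). Set against Pecam1 and Cdh5 only, the differences of Dll4 were -0.06 and 0.19.

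Notch4, which fell in CPM at 28 d, had 38.2 ± 3.0 counts per 1000 endothelial marker counts in MI 28 d hearts, 57.4 ± 2.9 in MI 7 d hearts and 30.3 ± 0.9 in sham hearts. Both MI groups lay above sham without overlap (log2 differences 0.33 and 0.92, exact permutation p = 0.1 each). Hey1 had 7.73 ± 1.29, 11.2 ± 1.0 and 6.58 ± 0.37 counts per 1000. It overlapped sham at 28 d (log2 difference 0.22, exact permutation p = 0.2) and lay above it in 3 of 3 libraries at 7 d (log2 difference 0.76, exact permutation p = 0.1). Notch2, Notch3, Jag1, Hey2 and Hes1 lay above sham in all MI libraries by this measure, with log2 differences of 0.65 for Notch3 to 1.84 for Notch2 at 28 d and of 0.84 for Hey2 to 2.59 for Notch2 at 7 d. Per 1000 counts of the 10 mural markers, Notch3 had 46.6 ± 7.6, 55.2 ± 10.4 and 40.2 ± 2.3 counts and overlapped sham at 28 d (log2 difference 0.20, exact permutation p = 0.4), and lay above it at 7 d (0.44, exact permutation p = 0.1). Jag1 had 21.8 ± 5.3, 25.4 ± 2.9 and 12.3 ± 0.5 counts by the same measure and did not overlap sham at either time. Per 1000 counts of the ventricular cardiomyocyte markers, Hey2 had 0.0976 ± 0.0298, 0.259 ± 0.059 and 0.0519 ± 0.0014 counts, without overlap between any groups. These lists hold genes that changed unevenly among themselves, so a ratio to their sum is a description and no measure of RNA per cell.

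**Figure D4:**
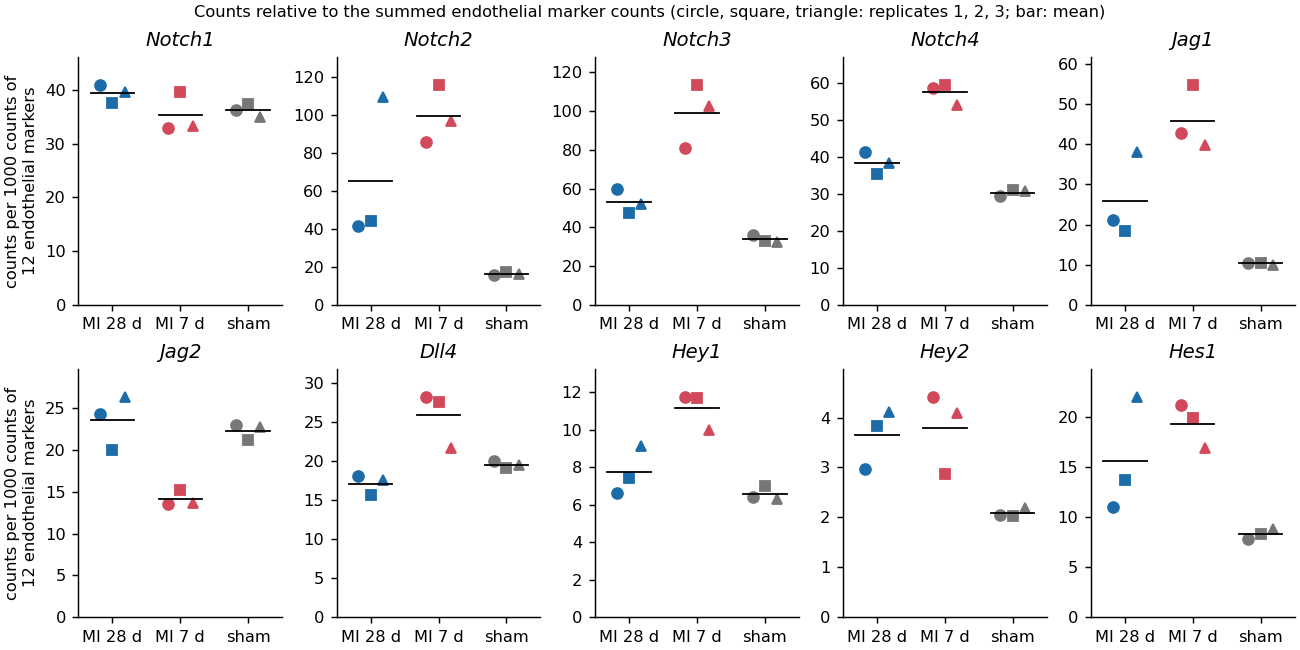
Counts of each gene per 1000 summed counts of 12 endothelial markers (y axis, linear, from 0) in each library by group (x axis), with a bar at the mean of 3 libraries. Notch1 lay between 33.0 and 41.0 in all 9 libraries, and Notch4, Notch2 and Jag1 lay higher in all MI libraries than in all sham libraries.

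The other genes of the pathway were read from 8 lists by role, with 82 genes of which 72 were tested. At 28 d against sham 22 rose, 19 fell and 31 did not pass. At 7 d against sham 30 rose, 17 fell and 25 did not pass, and at 28 d against 7 d 14 were higher, 25 lower and 33 did not pass. Over all tested genes, 29.5% were higher and 25.6% lower at 28 d, 39.0% and 35.4% at 7 d, and 29.1% and 26.1% at 28 d against 7 d. The share of the 72 that rose against sham was close to these at both times, as was the share that fell at 28 d. The share that fell at 7 d was below the background. At 28 d against 7 d the share that was higher lay below it and the share that was lower lay above it. Whether the pathway as a set differed from the background was not tested. The lists below are to be read beside the same shares. The median log2 fold changes of the 72 were 0.06, 0.17 and -0.02 in the same order, beside 0.05, 0.06 and 0.03 over all tested genes. The counts at 28 d fell to 7 higher and 7 lower with the sham libraries summed to 1, and the higher ones to 14 without replicate 3 of sham. With library size alone 36 were higher and 8 lower at 28 d, 42 and 8 at 7 d, and 8 and 29 at 28 d against 7 d.

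Steps that come before the receptor is cut were uneven. Of 4 tested ligand-like genes, the microfibril proteins Mfap2 and Mfap5, known to bind Notch proteins, rose 3.45-fold and 6.24-fold at 28 d and 18.2-fold and 10.6-fold at 7 d, and Egfl7 and Dll1 fell 1.47-fold each at 28 d. Of 8 genes listed under ligand endocytosis, a step that ligands need in order to signal, 1 rose and 4 fell at 28 d and 1 rose and 3 fell at 7 d. The ubiquitin ligase gene Neurl3 rose 1.28-fold at 28 d and 5.25-fold at 7 d, and Neurl2 fell 1.90-fold and 2.70-fold. Whether Neurl3 and Neurl2 act on Notch ligands was not tested. Mib1, Mib2 and Neurl1a of the same list did not pass against sham at either time. Of 8 genes for receptor glycosylation, 3 rose and 1 fell at 28 d, and 4 rose at 7 d while the other 4 did not pass, led by the fringe enzyme Lfng with a rise of 2.97-fold and 5.06-fold.

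Of 10 genes of the cleavage enzymes, 1 rose and 2 fell at 28 d, and 7 rose and 1 fell at 7 d. Adam10, the main protease of the first cut, rose 1.20-fold at 28 d and 1.87-fold at 7 d, and Psen2, a catalytic subunit of gamma-secretase, rose 2.15-fold at 7 d. At 28 d against 7 d 7 of the 10 were lower and the other 3 did not pass. The subunit gene Aph1c rose 7.87-fold at 7 d, but it is a near copy of Aph1b, which fell 1.23-fold (log2 0.03 with library size alone), and reads may be split between them uncertainly.

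In the nucleus, 3 of 9 genes of the activation complex rose at 28 d while the other 6 did not pass, and 4 rose and 2 fell at 7 d. Rbpj itself rose 1.30-fold at 28 d and 1.64-fold at 7 d, and the coactivator Maml2 rose 1.76-fold and 2.34-fold, while the acetyltransferase gene Kat2b fell 1.65-fold at 7 d. Of 12 corepressor genes, 4 rose and 4 fell at 28 d, and 4 rose and 5 fell at 7 d, with Tle3 higher by 2.44-fold and 2.84-fold and Ncor1 lower by 1.30-fold and 1.84-fold.

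Of 16 genes for inhibitors and turnover, 6 rose and 4 fell at 28 d, and 5 rose and 5 fell at 7 d. Numbl, a relative of the inhibitor Numb, rose 3.45-fold and 5.04-fold, and Fbxw7, which marks cleaved Notch for breakdown, fell 2.41-fold and 3.26-fold. Nrarp, a target and feedback inhibitor of Notch, had 10.4 ± 2.8 CPM in MI 28 d hearts, 22.3 ± 1.3 CPM in MI 7 d hearts and 26.2 ± 2.6 CPM in sham hearts (SD, n = 3 each). It fell 2.53-fold at 28 d (edgeR adjusted p = 0.000312), and its log2 fold change at 7 d was -0.24 (edgeR adjusted p = 0.241).

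Of 5 tested relatives of the target repressors, Bhlhe40 and Bhlhe41 rose at both times, by 2.81-fold and 1.90-fold at 28 d and by 1.88-fold and 1.43-fold at 7 d. Heyl, a HEY repressor known from smooth muscle, rose 1.73-fold at 7 d and was 2.16-fold lower at 28 d than at 7 d, the order that Notch3 showed, and Hes6 fell 1.59-fold at 28 d. Helt, which lies outside the rule for named genes and was chosen after its values were seen, had 7 counts over the MI 28 d libraries, 1 over the MI 7 d libraries and 55 over the sham libraries. It passed the filter on low counts only through sham, so its place among the genes counted as lower is no support for a fall.

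**Figure D5:**
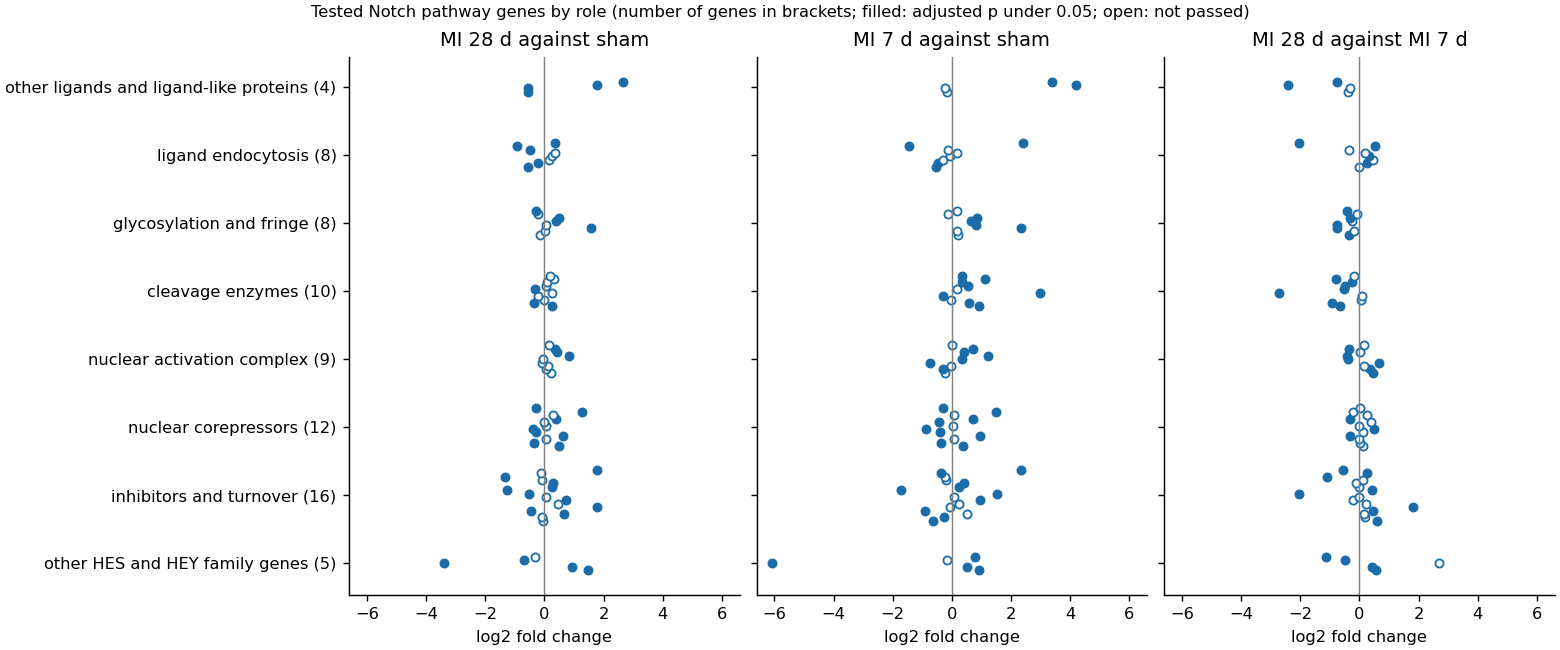
Log2 fold change (x axis) of each of 72 tested pathway genes by role (y axis, number of genes in brackets) in the 3 comparisons, with filled points for an adjusted p under 0.05. Filled points lay on both sides of 0 in most roles, and among the cleavage enzymes 7 of 10 lay right of 0 at 7 d against sham and 7 of 10 left of 0 at 28 d against 7 d.

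The gene with the pattern nearest to each member was taken from 12065 tested genes, as the smallest root mean square difference of centred log2 CPM over the 9 libraries. It was Rsad2 for Notch1 (difference 0.11), Taok3 for Notch2 (0.06), Nup210 for Notch3 (0.16) and Itga6 for Notch4 (0.09). For the ligands it was Myh9 for Jag1 (0.06), Nceh1 for Jag2 (0.07) and Tspan2 for Dll4 (0.11). For the targets it was Plxnd1 for Hey1 (0.07), Grasp for Hey2 (0.14) and Ints7 for Hes1 (0.08). These are likenesses in level over the same 9 libraries, which also share depth and scaling.

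In the annotation, exons of 4 members overlap another gene. Notch1 shares 10.2% of its exon bases with 0610009E02Rik and 4.36% with Gm13568, Notch3 6.09% with Gm17276 and Dll4 5.71% with Gm14207, all on the opposite strand, and Notch2 shares 5.15% with Gm42820 on its own strand. The strand setting of the counting is not given in the sources used here, so reads of these stretches cannot be told apart or may not have been counted. In the table, 0610009E02Rik had at most 0.70 CPM and Gm14207 at most 1.38 CPM in any library.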

How the data were processed

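Bulk RNA-seq libraries of 9 mouse hearts were compared in the 3 groups given by the sample titles. Total RNA went into KAPA RNA HyperPrep libraries, per the labels' protocols. Trim Galore, STAR, featureCounts and the mm10 genome build are named without versions, per the submitters' processing notes. Not given in the sources used here are the gene annotation, how strand was handled and what was done with reads of several alignments. Measurements are raw counts per gene symbol, as the authors deposited them, and 0 columns were left out for want of a sample.

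Counts were filtered with filterByExpr (minimum count 10, minimum total 15), scaled by TMM (factors 0.985 to 1.10 at MI 28 d, 1.08 to 1.13 at MI 7 d and 0.869 to 0.881 in sham) and fitted with a means model of all 9 libraries in edgeR 4.0.16 under R 4.3.3. Each contrast was tested two-sided by quasi-likelihood, with p-values of 14347 genes adjusted by Benjamini-Hochberg at 0.05. The SE was derived as the size of the log2 fold change divided by the root of its F statistic, and log2 CPM used a prior count of 2. The script was tested on simulated counts. A read was worth 0.0481 to 0.0920 CPM. RPKM used the summed exon lengths of protein-coding transcripts in GENCODE M21 (basic set, GRCm38).

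Alternatives were DESeq2 1.42.0, voom with group weights in limma 3.58.1, other scalings and filters, a fit of only the groups compared, the replicate number as a block, a 2-fold threshold, leaving out each library in turn or the Adipoq-rich libraries, and, chosen after seeing the data, the sham libraries summed to 1 and the ratios of member pairs. Chi-square per degree of freedom was 17.9 to 67.4 between replicates of the MI groups and 1.64 to 1.76 between sham libraries, more than sampling noise, and all were kept.

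The members and lists were chosen with earlier results of these data known. Named genes were all members, from each pathway list and comparison up to 3 genes per direction with the widest change among those that passed and averaged at least 1 log2 CPM (of these a part is printed), the first 2 markers of each list with any at 0, and the nearest gene in pattern to each member, leaving out symbols of the Gm and Rik forms.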

Additional observations from a re-analysis of the deposited data

Results flagged for a closer look

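Effects of MI that differed between the 2 times are listed here, each tested as the log2 fold change of MI 28 d against MI 7 d with edgeR's quasi-likelihood test at an adjusted p under 0.05. Among the members, the effect against sham was lower at 28 d for Notch2 (-0.76), Notch3 (-0.87), Notch4 (-0.56), Jag1 (-0.92), Dll4 (-0.57), Hey1 (-0.54) and Hes1 (-0.38), and higher for Jag2 (0.73).

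Among the ligand-like and endocytosis genes it was lower for Mfap2 (-2.40), Mfap5 (-0.76) and Neurl3 (-2.04), and higher for Neurl2 (0.51), Mib2 (0.33) and Epn2 (0.24). Among the glycosylation and cleavage genes it was lower for Lfng (-0.77), Mfng (-0.75), Xxylt1 (-0.43), Aph1c (-2.71), Adam17 (-0.94) and Psen2 (-0.79).

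Among the nuclear genes it was higher for Kat2b (0.66), Crebbp (0.44), Ep300 (0.36) and Ncor1 (0.51), and lower for Maml2 (-0.41), Maml1 (-0.37), Rbpj (-0.34), Hdac1 (-0.33) and Tle1 (-0.32). Among inhibitors and turnover genes it was higher for Aak1 (0.59), Cul3 (0.47) and Fbxw7 (0.44), and lower for Dtx4 (-2.03), Nrarp (-1.10) and Numbl (-0.55). Among the relatives of the targets it was higher for Bhlhe40 (0.58) and Bhlhe41 (0.41), and lower for Heyl (-1.11) and Hes6 (-0.50).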

How the results depend on the processing

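Of the alternatives to the fit, 17 were run for each comparison with sham and 16 for MI 28 d against MI 7 d. With library size alone, log2 fold changes that were not called, or weakly called, changed sign at 7 d for Notch4 (0.22), Hey1 (0.063), Hey2 (0.18), Aph1b (0.032) and Ep300 (0.030), and at 28 d for Hey2 (0.028) and Hes1 (0.063). That scaling gave 2 members higher at 28 d (Notch2 and Jag1) and 4 at 7 d (Notch2, Notch3, Jag1 and Hes1), 36 pathway genes higher and 8 lower at 28 d, 8 lower at 7 d, and 8 higher at 28 d against 7 d, where 29 were lower. A 2-fold threshold (glmTreat in edgeR) left 1115 genes at 28 d, 4435 at 7 d and 1310 between the MI groups. It left 0 members higher and 0 lower at 28 d and between the MI groups, and 1 higher and 1 lower at 7 d. It left 4 pathway genes higher and 1 lower at 28 d, 8 and 3 at 7 d, and 0 and 4 between the MI groups. With the sham libraries summed to 1, 3717 genes, 0 members higher, 3 members lower, 7 pathway genes higher and 7 lower passed at 28 d, and 11 pathway genes lower at 7 d. A fit of only the groups compared gave 8 pathway genes higher at 28 d against 7 d.

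Without the Adipoq-rich libraries, Hey2 (0.17) and Hes1 (0.018) at 28 d against sham and Hey2 (0.44) at 28 d against 7 d changed sign, and 2 members (Notch1 and Jag2) and 9 pathway genes were higher at 28 d against 7 d. Replicate 2 alone stood for MI 28 d in that fit. The counts of members and pathway genes from it thus hold no replicate spread of that group. They are listed as a record of the fit and are no basis for calling a gene. With a library left out, Hey2 changed sign at 28 d against 7 d (-0.31 to 0.11) and at 7 d against sham (-0.26 to 0.047). Members lower at 28 d against 7 d ranged from 4 without MI 7 d replicate 1 to 7, and members higher from 1 to 2, with 2 without MI 28 d replicate 3. Pathway genes higher at 28 d against sham ranged from 14 without sham replicate 3 to 24. The cause of these changes was not tested, and the labels give no batch. With the replicate block, 7688 genes passed at 28 d, 10583 at 7 d and 7785 between the MI groups, and the member counts were as without it. The shared numbers are not known to pair mice, same-numbered libraries had correlations of their deviations of -0.09 to 0.30, and not every library correlated best with its own number. Low counts limit Hey2 most, with 181 to 295 counts over a group.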
